A study of Rattus norvegicus with 13 samples.

Results

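Intercalated disc and gap junction genes were examined in the left ventricle of late-pregnant rats. They were taken as the probe sets whose only gene symbol was Gja1, Cdh2, Ctnnb1, Jup, Ctnna1, Vcl, Dsp or Tjp1, which gave 19 probe sets for 8 genes, of 31042 probe sets tested and 14217 genes with a single symbol. Of the 13 arrays, 5 were from untreated control hearts, 4 from hearts of rats that drank water with L-methionine at 9 g/L (Met-fed, a model of hyperhomocysteinemia) and 4 from rats that drank water with L-NAME at 1 g/L, which inhibits nitric oxide synthases. All rats were pregnant female Sprague-Dawley rats, bought at a body weight of 200 to 250 g. By the sample records, methionine or L-NAME was given over days 1 to 20 of gestation, and all rats were killed on day 20 or 21. Their age is not given in the sources used here. The sources do not say whether each array held the RNA of 1 heart, so that the p-values measure only the spread between these arrays. The methods describe rats that had been through several pregnancies, which the sample labels do not mention. By the methods, methionine water was given from the first pregnancy until death, a longer exposure, and the days of killing span a wider range. The methods do not report the L-NAME arrays. They give 4 control arrays where the labels give 5, without naming the 4, and all 5 were used here.

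The intercalated disc joins the ends of neighbouring cardiomyocytes. Gap junctions, built of connexins, pass current and small molecules between the cells. Adherens junctions tie N-cadherin through catenins and vinculin to actin, while desmosomes tie desmosomal cadherins through plakoglobin and desmoplakin to desmin filaments. Beta-catenin and plakoglobin, which are close relatives, also enter the nucleus, where beta-catenin drives Wnt target genes.

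Promoter sequences from RefSeq (rat assembly GRCr8) were found for 6 of the 8 genes, and the 250 bases before the annotated start are shown for 3 of them, the gap junction gene and an actin linker whose brightest signals were lower and the plakoglobin gene whose signal was higher on the L-NAME arrays as deposited. The sequences run 5′ to 3′ on the strand of the gene, and capitals mark matches on either strand to 5 motifs. They are the AP-1 motif, with letters TGANTCA where N is any base, the GC box, with letters GGGCGG, and the TEAD motif, with letters CATTCC. The remaining motifs searched for were the TATA box, with letters TATAAA, and the CCAAT box.
Gja1, chr20:36302314-36302563, plus strand: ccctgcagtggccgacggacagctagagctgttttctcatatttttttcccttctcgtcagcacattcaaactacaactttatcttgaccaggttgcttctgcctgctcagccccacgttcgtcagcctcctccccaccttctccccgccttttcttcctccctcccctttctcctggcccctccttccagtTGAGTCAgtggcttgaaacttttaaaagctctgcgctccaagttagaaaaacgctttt
Vcl, chr15:3404801-3405050, minus strand: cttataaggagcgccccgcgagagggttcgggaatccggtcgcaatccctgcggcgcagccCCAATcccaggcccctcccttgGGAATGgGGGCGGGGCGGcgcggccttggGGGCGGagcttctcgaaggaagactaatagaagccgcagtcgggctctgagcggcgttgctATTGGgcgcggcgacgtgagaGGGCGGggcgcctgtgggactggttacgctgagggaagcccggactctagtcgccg
Jup, chr10:85827430-85827679, minus strand: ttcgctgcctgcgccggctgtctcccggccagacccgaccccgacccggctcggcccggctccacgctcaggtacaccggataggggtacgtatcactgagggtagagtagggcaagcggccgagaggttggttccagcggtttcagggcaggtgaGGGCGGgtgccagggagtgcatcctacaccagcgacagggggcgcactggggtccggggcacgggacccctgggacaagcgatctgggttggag

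The AP-1 match in Gja1 began 58 bases before the start and was the only one among the 6 genes, and 6.34% of 33469 rat promoters of the same length hold one. GC boxes were found in 3 of the 6 (Vcl, Jup and Dsp) and in 30.5% of all promoters. Vcl had 4 of them, of which the first pair share a base, together with 1 TEAD match and 2 CCAAT boxes, motifs that 12.1% and 34.0% of all promoters hold. The TATA box letters, which 12.9% of promoters hold, were in 0 of the 6. These matches are letters in a sequence and were not measured as binding sites.

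The signals are MAS5 intensities, a weighted mean brightness of the short probes of a probe set, and are given on the log2 scale. Differences are log2 differences of group means ± SE from limma over all 13 arrays, with p-values adjusted over the 31042 probe sets, and ± SD is used for the spread of single arrays. A higher log2 value of one probe set than of another does not rank the genes, since probes differ in brightness. The L-NAME arrays stood apart as a whole. Their median signal was 34.2 to 36.9, against 25.7 to 27.2 on the control and 25.8 to 29.2 on the Met-fed arrays, while their 99th percentile was 1672 to 1867 against 2248 to 2384 on the control arrays. The log2 ratio of 3′ to 5′ signal of beta-actin was 2.32 to 2.70 on the L-NAME arrays and 3.31 to 3.68 on the control arrays. Bright probe sets were thus lower and dim ones higher on the L-NAME arrays, and the differences of the 8 genes from control are set below beside those of probe sets of like signal. For the partner genes this was not done. No detection calls were used, so it was not tested whether dim probe sets lay above background. Whether this came from the treatment or from the preparation of these arrays cannot be told apart.

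In Met-fed hearts 0 of the 8 genes passed an adjusted p of 0.05 by the brightest probe set (limma, smallest adjusted p = 0.461), and the same holds for 0% of all probe sets. At an unadjusted p under 0.05 stood 1 gene, Jup, and 10.7% of all probe sets, and groups without overlap were found for 0 of the 8 and 2.89% of all. The methods' t-test gave 0 of the 8 at the same unadjusted level. The estimate was above 0 for 3 genes and below 0 for 5, with a median of -0.07 against 0.004 for all probe sets. Among all probe sets with a mean log2 signal of 10 to 11 the median was -0.04, at 11 or more -0.06 and at 8 to 9 0.03. Jup lay at 8 to 9 and the other genes at 10 or more. In L-NAME hearts, as compared to control, 1 gene (Jup) was higher and 6 (Gja1, Cdh2, Ctnnb1, Ctnna1, Vcl and Tjp1) were lower at an adjusted p under 0.05 in limma. Over all probe sets 28.7% were called higher and 17% lower. The groups did not overlap for 1 gene higher and 5 lower, against 25.8% and 14.5% of all probe sets. The median difference was -0.38 over the 8 genes and 0.22 over all probe sets.

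The share called lower depended on signal. It was 91.5% of the 319 probe sets with a mean log2 signal of 11 or more, where the median difference was -0.52, and 61.2% of the 983 between 10 and 11, where it was -0.32. Under a log2 signal of 4 the median difference was 0.40. Gja1 and Ctnnb1 lay in the brightest of these bands by their brightest probe sets and Cdh2, Dsp, Ctnna1, Vcl and Tjp1 in the next. Measured from the median of its own band, Ctnna1 was lower by -0.82 and Cdh2 by -0.32, while Jup was higher by 0.35. The value of Jup still lay between the quartiles of its band (-0.42 and 0.51), where 35.1% of probe sets were called higher and 69.2% had a lower value. Gja1 (0.04), Vcl (-0.05), Ctnnb1 (0.12), Tjp1 (0.14) and Dsp (0.17) lay nearer to their bands. After quantile normalization, or after a cyclic loess fit chosen after seeing the data, 3 genes passed an adjusted p of 0.05, with Jup higher and Cdh2 and Ctnna1 lower. With every array centred on its own median, 0 were higher and 7 lower. Over all probe sets 21.98% were then called higher and 21.89% lower with quantile normalization, and 15.95% and 29.74% with median centring, which moved the median of all to -0.21.

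**Figure D1:**
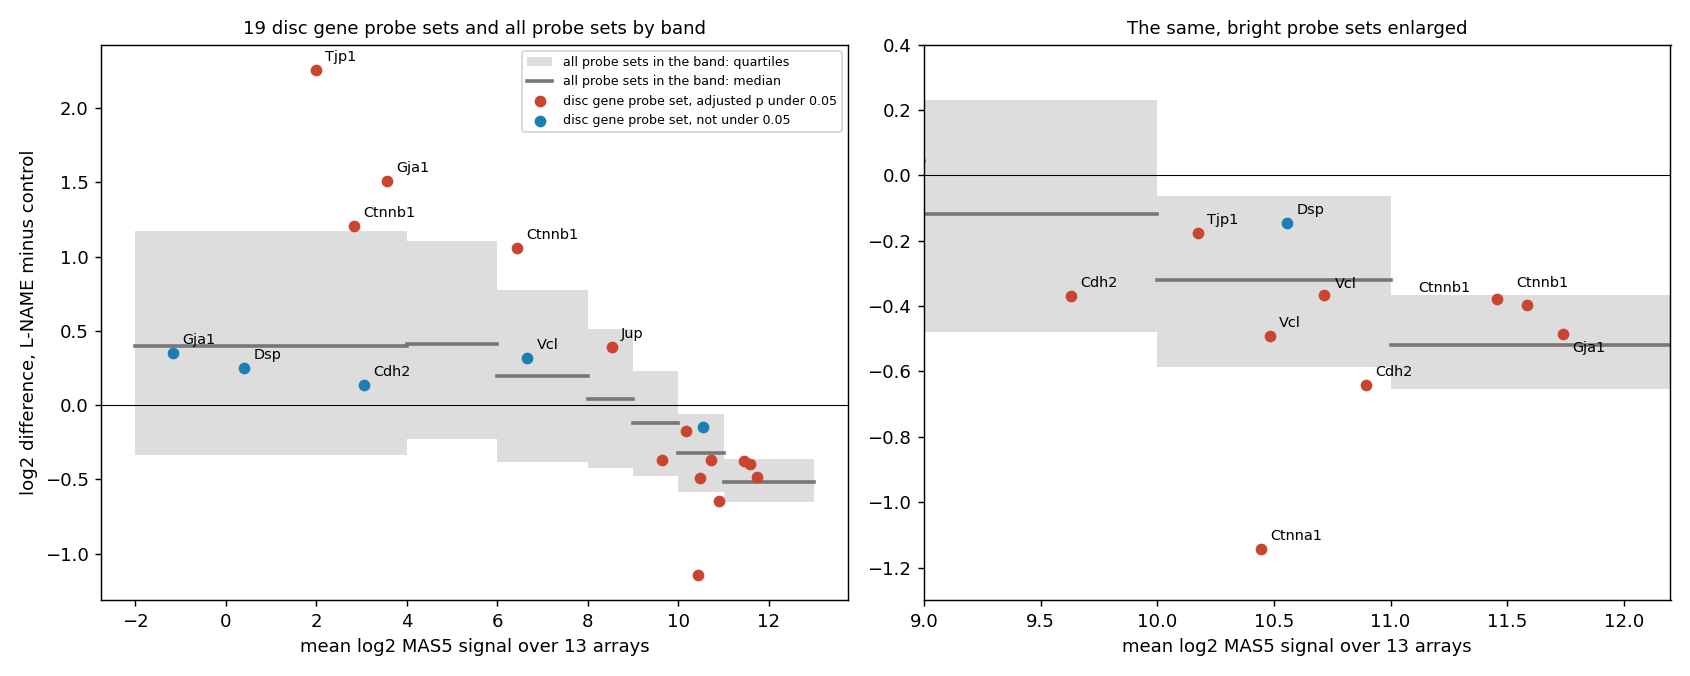
Log2 difference of L-NAME minus control (vertical axis) against the mean log2 signal over 13 arrays (horizontal axis), with all 19 probe sets of the 8 genes on the left and the bright ones enlarged on the right; grey boxes are the quartiles and grey lines the medians of all probe sets in each signal band. Ctnna1 (-1.14) and Cdh2 (-0.64) lie under the lower quartile of their band, while the brightest probe sets of Gja1, Ctnnb1, Jup, Vcl, Tjp1 and Dsp lie between the quartiles of theirs.

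Ctnna1, alpha-E-catenin, which links the cadherin complex to actin, had the largest difference of the 8. It is read by 1 probe set, 1371921_at. Its log2 signals were 10.82, 10.66, 10.88, 10.91 and 10.93 in control, 10.40, 10.96, 10.80 and 10.62 in Met-fed and 9.89, 9.93, 9.69 and 9.27 in L-NAME hearts. Every L-NAME array was lower than every other array, with replicate 4 the lowest, and the Met-fed arrays spread around the controls. The difference from control was -1.14 ± 0.13 in L-NAME hearts, 2.21-fold lower (adjusted p = 2.4e-06 in limma). The exact permutation p (2-sided, on the difference of the group means) was 0.00794, the smallest that 4 arrays against 5 allow, and 0.0381 after adjustment over 24 such tests. Of the 983 probe sets in its signal band, 3.66% had a lower value. The difference was -0.94 ± 0.13 with quantile normalization, -0.85 with cyclic loess and -1.57 with median centring, each with an adjusted p under 0.05. In Met-fed hearts it was -0.15 ± 0.13, with a 95% interval of -0.42 to 0.13.

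Cdh2, N-cadherin, the cadherin of the adherens junction of cardiomyocytes, had log2 signals of 11.20, 11.11, 11.06, 11.06 and 11.13 in control hearts by its brightest probe set, 1368642_at. They were 10.91, 11.12, 11.19 and 10.98 in Met-fed and 10.32, 10.58, 10.58 and 10.39 in L-NAME hearts. All 4 L-NAME arrays lay below the lowest of the other arrays. The difference from control was -0.64 ± 0.08, 1.56-fold lower (adjusted p = 3.6e-06 in limma, exact permutation p = 0.00794). A second probe set, 1387259_at, was lower by -0.37 ± 0.09 (adjusted p = 0.0022 in limma), also without overlap. The brightest one kept an adjusted p under 0.05 with quantile normalization (-0.30 ± 0.06) and cyclic loess (-0.28). The second one did so with quantile normalization (-0.28 ± 0.09, adjusted p = 0.0163 in limma) and not with cyclic loess (-0.20, adjusted p = 0.0686 in limma). The third probe set was dim, with a mean log2 signal of 3.06 where the median of all probe sets was 4.87, and had a difference of 0.14 ± 0.45.

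Jup, plakoglobin or gamma-catenin, sits in both the desmosome and the adherens junction. By the brightest probe sets it was the 1 gene called higher in L-NAME hearts, while dimmer probe sets of Gja1, Ctnnb1 and Tjp1 were also called higher. Its single probe set, 1387061_at, gave 8.55, 8.24, 8.24, 8.23 and 8.48 in control hearts. It gave 8.52, 8.62, 8.35 and 8.76 in Met-fed and 8.68, 8.83, 8.70 and 8.74 in L-NAME hearts. The L-NAME arrays were above every control array and within the Met-fed range except for replicate 2, the highest. The difference from control was 0.39 ± 0.10 in L-NAME (adjusted p = 0.0040 in limma, exact permutation p = 0.0159, and 0.0527 after adjustment over the 24 tests) and 0.21 ± 0.10 in Met-fed hearts (unadjusted p = 0.0467, adjusted p = 0.461 in limma, exact permutation p = 0.0794). It was 0.32 ± 0.10 with quantile normalization and 0.40 with cyclic loess in L-NAME hearts, and turned to -0.03 with median centring.

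Gja1, connexin 43, the main connexin of the working ventricle, had log2 signals of 11.93, 11.81, 11.72, 11.93 and 11.93 in control hearts by its brightest probe set, 1372002_at. They were 11.76, 12.04, 12.06 and 11.90 in Met-fed and 11.21, 11.42, 11.50 and 11.40 in L-NAME hearts. The Met-fed arrays reached above and the L-NAME arrays lay wholly below the controls. The difference in L-NAME hearts was -0.48 ± 0.08, 1.40-fold lower (adjusted p = 7.1e-05 in limma, exact permutation p = 0.00794), and 54.9% of the probe sets of its band were lower still. It turned to 0.07 ± 0.04 with quantile normalization (adjusted p = 0.233 in limma) and 0.01 with cyclic loess. In Met-fed hearts it was 0.07 ± 0.08, with a 95% interval of -0.09 to 0.24, where its band had a median of -0.06 and 95.3% of the band had a lower value. The second probe set, 1369640_at, was dim, with log2 signals of 2.32 to 3.50 in control, 3.07 to 4.35 in Met-fed and 3.64 to 5.19 in L-NAME hearts. Its difference in L-NAME hearts was 1.51 ± 0.39 (adjusted p = 0.0041 in limma), where the median of all probe sets under a log2 signal of 4 was 0.40 and their upper quartile 1.17, and 1.05 ± 0.39 with quantile normalization. It did not overlap control and kept an adjusted p under 0.05 in limma with quantile normalization (0.0403), median centring (0.0285) and cyclic loess (0.0434). Since it was not tested whether so dim a probe set lay above background, it says little on the direction of Gja1. The third, dimmer again with a mean log2 signal of -1.17, had a difference of 0.35 ± 1.16.

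Ctnnb1, beta-catenin, is read by 4 probe sets, a bright pair with differences below 0 and a dimmer pair with differences above 0 in L-NAME hearts as deposited. The brightest, 1373067_at, gave 11.70, 11.76, 11.59, 11.80 and 11.82 in control, 11.51, 11.75, 11.66 and 11.65 in Met-fed and 11.17, 11.49, 11.37 and 11.32 in L-NAME hearts. The next, 1373470_at, moved with it, and the differences in L-NAME hearts were -0.40 ± 0.07 and -0.38 ± 0.07 (adjusted p = 3.1e-04 and 2.2e-04 in limma), both without overlap with control. The third, 1369733_at, gave 6.15, 6.03, 5.83, 6.02 and 6.08 in control, 6.63, 6.22, 6.04 and 6.24 in Met-fed and 6.95, 7.27, 7.12 and 6.98 in L-NAME hearts. There every L-NAME array was above every other array, and the difference from control was 1.06 ± 0.14 (adjusted p = 9.5e-06 in limma, exact permutation p = 0.00794), against a median of 0.20 in its signal band, of which 84.0% had a lower value. The dimmest, 1375284_at, had a difference of 1.21 ± 0.30 (adjusted p = 0.0037 in limma), against a median of 0.40 in its band, of which 75.9% had a lower value. With quantile normalization the bright pair turned to 0.13 ± 0.05 and 0.12 ± 0.05, whose adjusted p of 0.0607 and 0.0530 in limma did not pass, while the third stayed at 0.82 ± 0.13 (adjusted p under 0.05) and the dimmest had 0.74 ± 0.29 (adjusted p = 0.0527 in limma). Where along the transcript these probe sets lie is not given in the files.

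**Figure D2:**
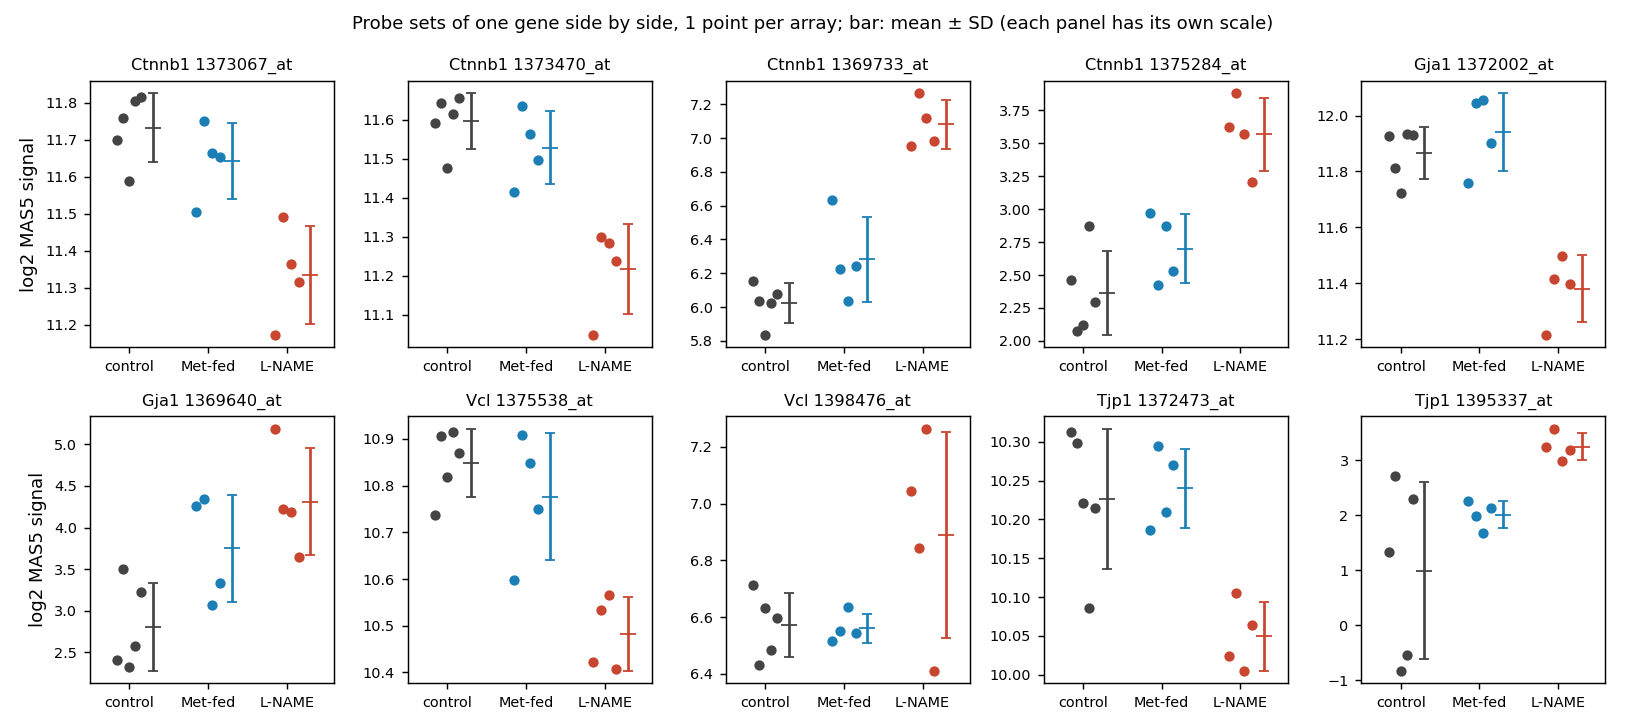
Log2 MAS5 signal (vertical axis, a separate scale per panel) of each array in control (n = 5), Met-fed (n = 4) and L-NAME hearts (n = 4) for the 4 probe sets of Ctnnb1 and for a bright and a dimmer probe set of Gja1, Vcl and Tjp1, with bars for mean ± SD. As deposited, in the bright probe sets of Ctnnb1 and Gja1 the L-NAME points lie under the controls and in 1369733_at, 1375284_at and 1369640_at above them.

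Vcl, vinculin, which joins the catenins and talin to actin, had log2 signals of 10.74, 10.91, 10.82, 10.91 and 10.87 in control hearts by its brightest probe set, 1375538_at. They were 10.60, 10.91, 10.85 and 10.75 in Met-fed and 10.42, 10.53, 10.57 and 10.41 in L-NAME hearts. The L-NAME arrays lay below all others, and Met-fed replicate 1 was the lowest of the rest. The difference was -0.37 ± 0.07 in L-NAME hearts (adjusted p = 5.1e-04 in limma), and -0.05 ± 0.05 with quantile normalization (adjusted p = 0.504 in limma). The second probe set, 1372905_at, was lower by -0.49 ± 0.07 and kept its call with quantile normalization (-0.24 ± 0.05, adjusted p = 0.0010 in limma) and with cyclic loess (-0.19). The third, of middle signal, had a difference of 0.32 ± 0.15 (adjusted p = 0.0893 in limma), with L-NAME arrays from 6.41 to 7.26 on both sides of the controls.

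Tjp1, the scaffold ZO-1 that binds the tail of connexin 43, had log2 signals of 10.31, 10.30, 10.22, 10.09 and 10.21 in control, 10.19, 10.29, 10.21 and 10.27 in Met-fed and 10.02, 10.11, 10.01 and 10.06 in L-NAME hearts by 1372473_at. Control replicate 4 lay among the L-NAME arrays, and the other controls above them. The difference of -0.18 ± 0.06 (adjusted p = 0.032 in limma, exact permutation p = 0.0238) lost its call without control replicate 1 or 2 or without L-NAME replicate 1, 3 or 4, when 6 of the 8 genes were called. It turned to 0.03 ± 0.06 with quantile normalization. The dim second probe set, 1395337_at, had a difference of 2.26 ± 0.64 (adjusted p = 0.0080 in limma) against a band median of 0.40, with L-NAME arrays from 2.99 to 3.58 and controls from -0.83 to 2.70. In its band 93.9% of probe sets had a lower value. The difference was 1.85 with quantile normalization, 1.83 with median centring and 1.78 with cyclic loess, each with an adjusted p under 0.05 in limma. Whether so dim a probe set lay above background was not tested, so it says little on the direction of Tjp1.

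Dsp, desmoplakin, which anchors desmin filaments to the desmosome, did not pass the test in any comparison of the deposited values. Its log2 signals by 1388506_at were 10.55, 10.63, 10.61, 10.75 and 10.64 in control, 10.28, 10.77, 10.50 and 10.56 in Met-fed and 10.56, 10.74, 10.46 and 10.20 in L-NAME hearts. All 3 groups overlapped. The difference from control was -0.15 ± 0.10 in L-NAME hearts, with a 95% interval of -0.37 to 0.07, and -0.11 ± 0.10 in Met-fed hearts, with one of -0.33 to 0.11. It was 0.17 ± 0.10 with quantile normalization and -0.57 with median centring, the latter with an adjusted p under 0.05. Its other probe set was very dim and had a difference of 0.25 ± 0.55.

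**Figure D3:**
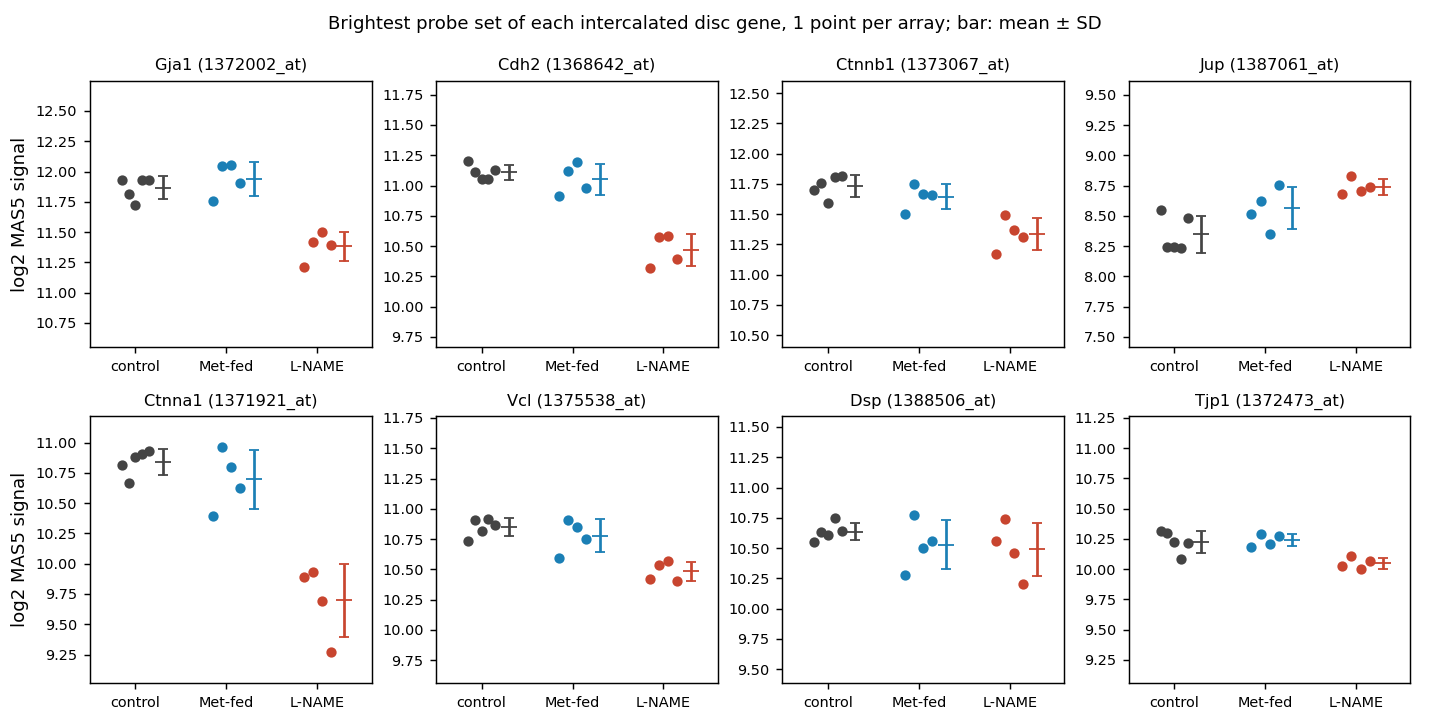
Log2 MAS5 signal (vertical axis, the same span in every panel) of the brightest probe set of each of the 8 genes, 1 point per array in control (n = 5), Met-fed (n = 4) and L-NAME hearts (n = 4), with bars for mean ± SD. The L-NAME points lie below all controls for Gja1, Cdh2, Ctnnb1, Ctnna1 and Vcl and above them for Jup, and the groups overlap for Dsp and Tjp1.

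Adjusted over the 24 exact permutation tests of the 3 comparisons, p between L-NAME and control hearts was 0.0381 for Gja1, Cdh2, Ctnnb1, Ctnna1 and Vcl and 0.0527 for Jup and Tjp1. Between Met-fed and control hearts the smallest exact permutation p was 0.0794 before adjustment. Of the 11 further probe sets, 4 were called higher and 3 lower in L-NAME hearts by limma, where 28.7% and 17% of all probe sets were, and 0 in Met-fed hearts. When the probe sets of a gene were averaged, 3 genes (Jup, Ctnnb1 and Tjp1) were called higher and 1 (Ctnna1) lower. Jup and Ctnna1 have 1 probe set each, so nothing was averaged there. In the mean of Tjp1 the dim 1395337_at (2.26) weighed as much as the bright 1372473_at (-0.18), and its signal over background was not tested.

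**Figure D4:**
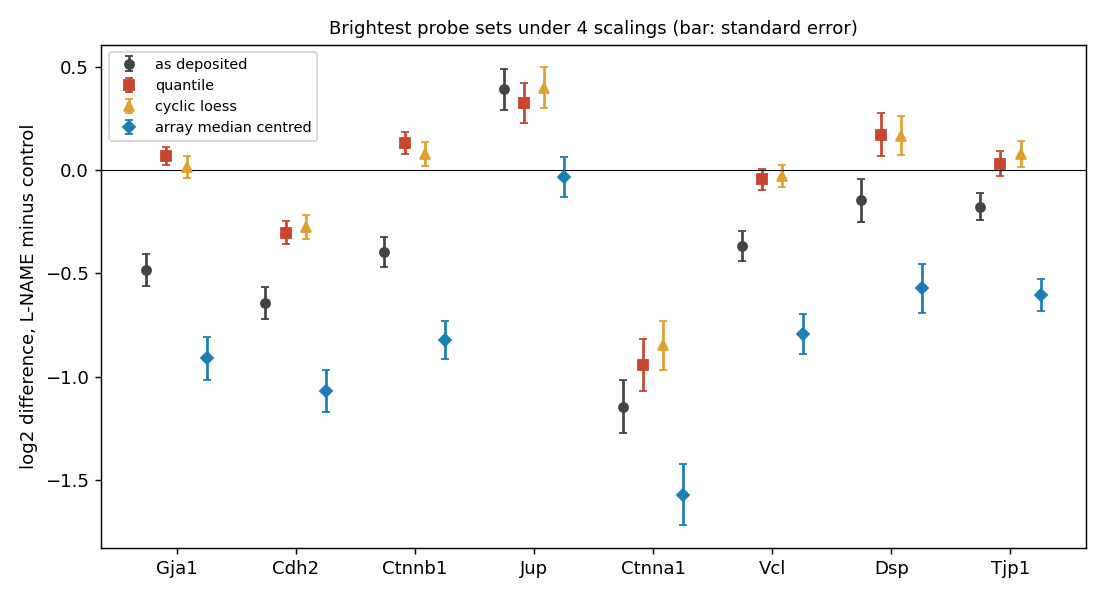
Log2 difference of L-NAME minus control (vertical axis) for the brightest probe set of each gene (horizontal axis) from the values as deposited, after quantile normalization, after cyclic loess and after centring each array on its median, with bars for the standard error. Cdh2, Ctnna1 and Vcl are below 0 under each of these 4 scalings, with Vcl at -0.05 after quantile normalization and -0.03 after cyclic loess. Jup is above 0 under 3 of them, and Gja1, Ctnnb1, Dsp and Tjp1 are below 0 as deposited and above 0 after quantile normalization.

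The L-NAME and Met-fed hearts were also compared directly. By the brightest probe sets 0 genes were higher and 6 lower in L-NAME hearts at an adjusted p under 0.05 in limma, against 25.4% and 14.9% of all probe sets. Groups without overlap were found for 0 higher and 6 lower, against 25.6% and 14%. Ctnna1 was lower by -0.998 ± 0.136, Cdh2 by -0.58 ± 0.08 and Gja1 by -0.56 ± 0.08, while Ctnnb1 (-0.31 ± 0.08), Vcl (-0.29 ± 0.08) and Tjp1 (-0.19 ± 0.07) had smaller differences. Jup had a difference of 0.18 ± 0.10 (adjusted p = 0.2 in limma). The exact permutation p was 0.0286 for each of the 6 that were lower, the smallest that 4 arrays against 4 allow, and 0.0527 after adjustment over the 24 tests, so that 0 passed. Beside these values, the median of all probe sets was -0.46 in the signal band of Gja1 and Ctnnb1, -0.27 in that of Cdh2, Ctnna1, Vcl, Dsp and Tjp1 and 0.06 in that of Jup. With quantile normalization Cdh2 and Ctnna1 were the 2 genes called, both lower, where 5634 of all 31042 probe sets were called higher and 5752 lower. The call of Tjp1 was lost without Met-fed replicate 2 or 4 or without L-NAME replicate 1, 3 or 4, when 5 genes were called. The comparisons of L-NAME with control and with Met-fed hearts share the L-NAME arrays and those with control share the control arrays, so they are not independent.

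Partners of the 8 genes were read from lists of genes by their brightest probe set. Of 16 other connexins and pannexins 11 were measured, and 4 of these had at least the median signal. Gja4, connexin 37, known from arterial endothelium, measured 7.70 ± 0.11 in control (SD, n = 5), 7.26 ± 0.21 in Met-fed (SD, n = 4) and 6.58 ± 0.20 in L-NAME hearts (SD, n = 4) on the log2 scale. It was lower in L-NAME hearts by -1.13 ± 0.12 (adjusted p under 0.05 in limma), also with quantile normalization (-1.35) and median centring (-1.55). In Met-fed hearts its difference of -0.45 had an unadjusted p of 0.0023 and an adjusted p of 0.274 in limma. Gjc1, connexin 45, a connexin of the nodes and conduction tissue, was higher in L-NAME hearts by 1.16 ± 0.17, with quantile normalization by 0.98 and with median centring by 0.73. Gja5, connexin 40, found in atrium and conduction fibres, had a difference of 0.06 ± 0.18, and Gja3, connexin 46, one of -0.45 ± 0.19 (adjusted p = 0.0648 in limma). In all, 1 of the 11 was higher and 1 lower, against 28.7% and 17% of all probe sets, with a median of 0.08 against 0.22 for all.

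Of 12 other desmosome and filament genes 11 were measured. Of these 0 were higher and 4 lower in L-NAME hearts, against 28.7% and 17% of all probe sets, with a median of -0.29. Dsg2, desmoglein 2, the desmosomal cadherin of the heart, was lower by -0.94 ± 0.09, and Pkp2, plakophilin 2, which binds desmoplakin, by -0.47 ± 0.11. Ppl, periplakin, a relative of desmoplakin, was lower by -1.25 ± 0.18. These 3 were also called lower with quantile normalization (-0.95, -0.35 and -1.45). In Met-fed hearts the smallest p of this list belonged to Dsc2, desmocollin 2 (0.28, unadjusted p = 0.012, adjusted p = 0.35 in limma), and to Dsg1, desmoglein 1, which was dim (-2.29, adjusted p = 0.379 in limma).

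Among the adherens junction genes 12 of 14 were measured. Of these 2 were higher and 2 lower in L-NAME hearts, against 28.7% and 17% of all probe sets, with a median of 0.17. Ctnnd1, p120-catenin, which holds cadherins at the membrane, was higher by 0.63 ± 0.12, and Cdh11, a cadherin of mesenchymal cells, by 0.75 ± 0.15. Both stayed higher with quantile normalization (0.47 and 0.77), and neither passed with median centring (0.21 and 0.33). Afdn, afadin, which ties nectins to actin, was lower by -0.52 ± 0.08, and Cdh13, T-cadherin, by -0.47 ± 0.13, also with quantile normalization (-0.56 and -0.59).

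Of 18 ZO proteins, tight junction and channel scaffold genes 13 were measured. Of these 4 were higher and 2 lower in L-NAME hearts, near the 28.7% and 17% of all probe sets, with a median of 0.29. F11r, the junctional adhesion molecule JAM-A, was higher by 2.25 ± 0.30, and by 2.01 with quantile normalization. Dlg1, the scaffold SAP97, was lower by -0.68 ± 0.09, and Ank2, ankyrin-B, by -0.63 ± 0.14. Ank2 also had a difference of -0.56 in Met-fed hearts (unadjusted p = 8.1e-04, adjusted p = 0.221 in limma), and Jam2, a relative of F11r, one of -0.15 (adjusted p = 0.471 in limma).

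Of 27 actin linkers 25 were measured. Of these 5 were higher and 14 lower in L-NAME hearts, against 28.7% and 17% of all probe sets, with a median of -0.20. Xirp1, a repeat protein of the disc that binds actin, was lower by -1.41 ± 0.17, Tln1, talin 1, by -1.001 ± 0.088 and Actn2, the sarcomeric alpha-actinin, by -0.72 ± 0.09. With quantile normalization 8 of this list were higher and 8 lower, with Xirp1 (-1.35), Tln1 (-1.10) and Actn2 (-0.34) still called lower. In Met-fed hearts Itga7, the laminin-binding integrin of muscle, had a difference of 0.36 and Tln2 one of -0.35, with adjusted p of 0.353 and 0.372 in limma.

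All 15 listed genes of beta-catenin turnover and Wnt transcription were measured. Of these 8 were higher and 3 lower in L-NAME hearts, against 28.7% and 17% of all probe sets, with a median of 0.52. Pygo2, a nuclear partner of beta-catenin, was higher by 1.57 ± 0.11, Gsk3b, the kinase that marks beta-catenin for degradation, by 1.18 ± 0.14, and Bcl9, which bridges beta-catenin to Pygo2, by 1.11 ± 0.15. These 3 were called higher under quantile normalization and median centring as well. The list holds activators and inhibitors of the pathway. Csnk1a1, a casein kinase that phosphorylates beta-catenin, and Dkk3 had the smallest p of the list in Met-fed hearts (-0.12 and 0.17, adjusted p of 0.574 and 0.57 in limma). In Met-fed hearts 0 genes of any partner list passed an adjusted p of 0.05.

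The counts of the partner lists depended on the scaling, while the partner genes named above as higher or lower in L-NAME hearts kept their sign under quantile normalization, cyclic loess and median centring. Over all probe sets 21.98% were called higher and 21.89% lower with quantile normalization, and 15.95% and 29.74% with median centring. With quantile normalization 1 connexin or pannexin was higher and 4 lower (median -0.23). Of the desmosome genes 1 was higher and 3 lower, and of the adherens junction genes 2 were higher and 3 lower. The scaffold list had 3 higher and 3 lower and the Wnt list 7 higher and 4 lower. With median centring the connexins gave 1 higher and 3 lower, the desmosome genes 0 and 8, the adherens junction genes 0 and 4, the scaffolds 1 and 4, the actin linkers 1 and 16 and the Wnt list 5 and 6.

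**Figure D5:**
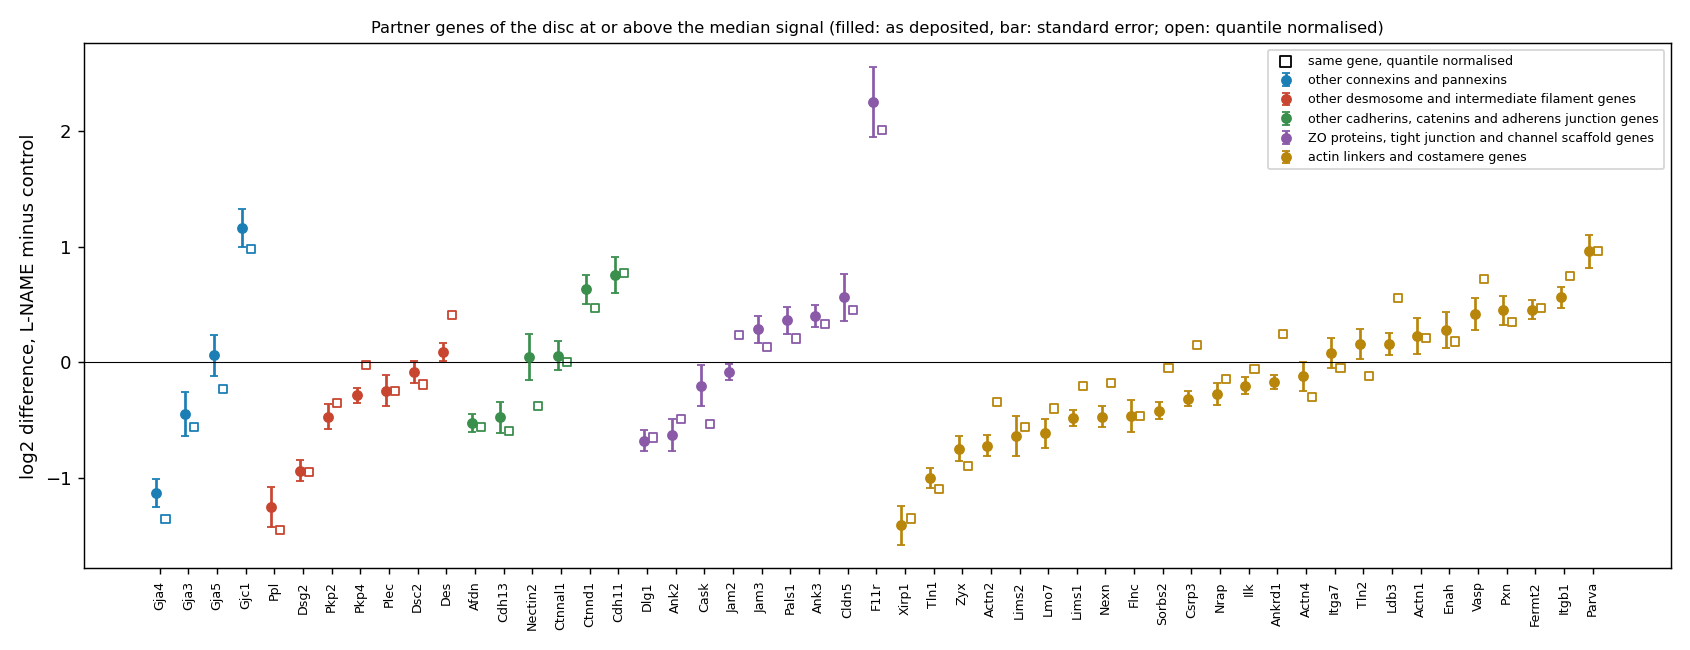
Log2 difference of L-NAME minus control (vertical axis) for measured partner genes with at least the median signal (horizontal axis, grouped by list), as filled points from the values as deposited with bars for the standard error and as open squares after quantile normalization. Gja4, Ppl, Dsg2, Xirp1 and Tln1 lie far below 0 and Gjc1 and F11r far above it under both scalings.

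Markers of the cells in the tissue moved as well, and their part in the differences above was not tested. In this bulk tissue fewer cells of a type and less RNA per cell cannot be told apart. Beside the counts below, 28.7% of all probe sets were called higher and 17% lower in L-NAME hearts as deposited. With quantile normalization these shares were 21.98% and 21.89%. Of 9 measured cardiomyocyte markers 8 were lower and 0 higher in L-NAME hearts, with a median of -0.63 and a summed linear signal of 20049 to 23060 against 30730 to 34155 in control and 25051 to 35091 in Met-fed hearts. These markers all had a mean log2 signal over 10. Of all probe sets, 61.2% between 10 and 11 and 91.5% at 11 or more were called lower, with medians of -0.32 and -0.52. With quantile normalization 4 of the cardiomyocyte markers were lower and their median was -0.11. Of 7 endothelial markers 1 was higher and 4 lower (summed signal 5240 to 5842 in L-NAME, 6441 to 7510 in control and 5893 to 6898 in Met-fed hearts), and of 5 leukocyte markers 4 were lower (1053 to 1440, 2013 to 2353 and 1797 to 2187). With quantile normalization 1 endothelial marker was higher and 3 lower, and 4 leukocyte markers were still lower (median -0.53). Of 7 fibroblast markers 0 were higher and 2 lower (7870 to 10042 in L-NAME and 8670 to 11087 in control hearts), and 2 were higher and 2 lower with quantile normalization. Of 5 smooth muscle markers 2 were higher and 2 lower (551 to 1259 and 807 to 1206), and of 2 blood markers 0 were higher and 1 lower, which became 1 and 0 with quantile normalization. The 5 epithelial markers were all under the median signal, and 1 of them was lower.

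The labelled tissue is left ventricle, and markers of atrium varied between arrays within each group. The summed signal of Myl7, Myl4 and Sln was 426 to 1118 in control, 311 to 4452 in Met-fed and 713 to 2706 in L-NAME hearts, highest in Met-fed replicate 4 and L-NAME replicates 2 and 4, and 0 of the 3 passed the test in either group. Without Met-fed replicate 4 the count of the 8 disc genes called in Met-fed hearts was again 0. Since 0 of all 31042 probe sets were called with or without that array, this count cannot show whether the array mattered. Without L-NAME replicate 2 the count was 1 higher and 6 lower in L-NAME hearts, and without replicate 4 it was 1 higher and 5 lower. Without L-NAME replicate 1 or 3, whose summed atrial signals were lower, it was 1 higher and 5 lower as well. Of all 31042 probe sets, 7933 were called higher and 4978 lower without replicate 2. Without replicates 1, 3 and 4 in turn, 8058, 8159 and 8167 were higher and 4961, 4801 and 4871 lower. Gja5, which atrial tissue expresses, had a log2 signal of 6.64 in Met-fed replicate 4 and 6.64 in L-NAME replicate 4, each the highest of its group. L-NAME replicate 2, with the highest summed signal of its group, had 6.37. These values lay within the control range of 5.87 to 6.68, whose top was control replicate 5, the control with the highest summed signal. The part of atrial tissue in these arrays was not tested.

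Across the 13 arrays, the profile of Gja1 was set beside those of 9392 genes with at least the median signal, each profile centred on its own mean. The measure was the root mean square distance on the log2 scale. Nearest were Smarca2, a chromatin remodelling ATPase (0.055), Mrfap1 (0.064) and Cd81, a tetraspanin (0.068). Among the other disc genes Cdh2 stood at 0.094 (67th nearest), Ctnnb1 at 0.118 (205th), Vcl at 0.130 (290th), Tjp1 at 0.195 (1174th), Dsp at 0.258 (2396th), Ctnna1 at 0.335 (3928th) and Jup at 0.407 (5173rd). The 13 points share the split between the L-NAME and the other arrays, where the log2 difference of L-NAME minus control was -0.55 for Smarca2, -0.48 for Mrfap1 and -0.55 for Cd81.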

How the data were processed

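Total RNA of left ventricle was hybridised to Affymetrix Rat Genome arrays. The authors computed a linear intensity per probe set with MAS5 (no version in the sources used here), and each deposited array had a mean of 150 after trimming 2% at each end. No genome build applies. The 57 control probe sets of 31099 were left out, values were taken to log2 without an offset or a filter, and the groups were fitted on 31042 probe sets by limma 3.58.1 under R 4.3.3 (1 coefficient per group over 13 arrays, no covariate, variance following the signal, Benjamini-Hochberg threshold 0.05). The number of arrays limits the precision. Groups came from the sample labels, and no 2 arrays were identical. Exact permutation tests (2-sided, difference of means) ran over all 126 or 70 splits of the brightest probe sets. The scripts were tested on simulated data.

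Gene symbols came from the platform annotation: 20826 probe sets had 1 symbol, 436 several and 9780 none, and for 19 of 19 probe sets of the 8 genes the gene ID has the same symbol in RefSeq. The 8 genes, the partner and marker lists and the tests were chosen with earlier results of these data known. Named were the 8 genes with all their probe sets, connexins and pannexins of at least the median signal, from each other partner list up to 3 genes of smallest p in L-NAME and 2 in Met-fed hearts, and the 3 genes nearest to Gja1. Marker lists (cardiomyocyte, atrial, endothelial, fibroblast, smooth muscle, epithelial, leukocyte, blood) are given by counts.

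Alternatives were a fit of just the groups compared, a variance without trend, an added offset (50 or 16), quantile normalization, centring of each array on its median, leaving out probe sets under the median signal, the methods' t-test in both forms, a replicate block, the mean of all probe sets of a gene, each array left out, and, chosen after seeing the data, cyclic loess. Same-numbered arrays did not all deviate together, with correlations from -0.17 to 0.05 between L-NAME and control, -0.09 to 0.07 between Met-fed and control and -0.21 to 0.24 between L-NAME and Met-fed (2 of 4 over 0.1), so the numbers were not taken as pairs. The variance stabilisation named in the methods was not repeated. Figures were drawn with matplotlib 3.10.9.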

Additional observations from a re-analysis of the deposited data

How the results depend on the processing

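Of 8 genes, 7 were called between L-NAME and control hearts as deposited (limma), and 3 with quantile normalization, 3 with cyclic loess and 4 with the mean of all probe sets. Of all probe sets, 28.7% were called higher and 17% lower as deposited, and 21.98% and 21.89% with quantile normalization. With cyclic loess 21.76% were higher and 21.03% lower, and with the mean of probe sets 8911 and 5276 of 31050. Between L-NAME and Met-fed hearts the 6 called became 2, 2 and 2. Of all 31042 probe sets, 7885 were called higher and 4610 lower there as deposited. These counts were 5634 and 5752 with quantile normalization and 5588 and 5370 with cyclic loess. With the mean of probe sets they were 7885 and 4611 of 31050. Between Met-fed and control hearts 0 were called under every alternative. Estimates against control turned with quantile normalization, the mean of probe sets and cyclic loess for Gja1 (0.066, 0.46 and 0.014), Ctnnb1 (0.13, 0.37 and 0.077), Dsp (0.17, 0.053 and 0.17) and Tjp1 (0.030, 1.04 and 0.078), and against Met-fed hearts for Ctnnb1 (0.15, 0.26 and 0.099) and Dsp (0.24, 0.43 and 0.24). Against Met-fed hearts Tjp1 turned with the mean of probe sets (0.52) and cyclic loess (0.037) and Vcl with cyclic loess (0.0016). Median centring turned Jup to -0.035 and -0.19 in these 2 comparisons and Tjp1 to -0.044 in Met-fed hearts, where the mean of probe sets turned Ctnnb1 to 0.11. The cause was not tested.

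With each array left out in turn, 7933 to 8985 of all 31042 probe sets were called higher against control and 4801 to 5364 lower. Against Met-fed hearts the ranges were 6758 to 8020 and 4187 to 4650. Of the 8 genes, 6 to 7 were called against control and 5 to 6 against Met-fed hearts, Tjp1 being the gene lost. It was lost against control without control replicate 1 or 2 or L-NAME replicate 1, 3 or 4, against Met-fed hearts without Met-fed replicate 2 or 4 or L-NAME replicate 1, 3 or 4, and in both with a variance without trend. The estimate of Dsp against Met-fed hearts ran from -0.12 to 0.058 and that of Tjp1 in Met-fed hearts from -0.022 to 0.035 over these omissions. With a replicate block, whose numbers do not pair the samples, 6 genes were called against control (Tjp1 not), 5 against Met-fed hearts and 0 in Met-fed hearts, and no other call changed. Of all 31042 probe sets, 8285 were then called higher and 4864 lower against control, and 7833 and 4513 against Met-fed hearts. Signal over background limits the dim probe sets, whose spread between arrays was widest.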
